A study of Mus musculus with 4 samples.

Results

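The cells described here are bone endothelial cells (ECs) that express *Vwf* and lack a few marker genes of arterial, sinusoidal and sprouting ECs. They were taken from 4 single-cell RNA-seq libraries of the non-hematopoietic fraction of metaphyseal long bone of 12-week-old mice. A barcode counted as endothelial with at least 1 UMI of *Cdh5*, at least 3 UMIs of *Cdh5*, *Pecam1* and *Egfl7* together and none of *Ptprc*, and it entered the Vwf group with at least 2 UMIs of *Vwf*, none of *Apln* or *Stab2*, and at most 1 of *Sema3g*, *Stmn2* and *Gja5* together. The members were thus chosen by measured UMI counts of these genes. By this rule 268 of 2904 endothelial barcodes were members, out of 24739 barcodes that passed the filter. The remaining ECs fell into 952 barcodes with arterial markers, 866 with *Stab2*, 285 with *Apln* and 533 that met the rule for the other markers but had fewer than 2 UMIs of *Vwf*, called Vwf-low below. A barcode with markers of several groups was counted in the first of them in this order.

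Of the libraries, 2 came from Lats2iECKO mutants, given tamoxifen to recombine both floxed *Lats2* alleles through Cdh5(PAC)-CreERT2, a transgene active in ECs. The 2 control libraries came from littermates with floxed *Lats2* but no Cre, and both groups received tamoxifen at an age of a few weeks, on a C57/BL6 background, with animals of both sexes. A Cdh5 reporter line was in the background of part of the colony. The libraries are named Lats2iECKO 1 and 2 and control 1 and 2 after their labels. The labels do not say how many animals each library pools, so the unit of the tests is the library. The p-values of the gene tests rest on the spread between these 4 libraries, pooled in part over genes.

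As background, von Willebrand factor is a large secreted glycoprotein that captures platelets at damaged vessel walls. ECs store it in Weibel-Palade bodies together with P-selectin (*Selp*), angiopoietin-2 (*Angpt2*) and endothelin-1 (*Edn1*), and release it on stimulation. Its transcript is usually more abundant in venous ECs and large vessels than in capillaries. LATS2 is a kinase of the Hippo pathway that, with LATS1, phosphorylates the cofactors YAP1 and TAZ, which otherwise drive transcription with TEAD factors in the nucleus.

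The libraries held 69636600 and 78953446 UMIs in mutants and 83453507 and 85899079 in controls. The members of Lats2iECKO 1, Lats2iECKO 2, control 1 and control 2 numbered 83, 92, 45 and 48, with a median of 6500, 6340.5, 4506 and 4824.5 UMIs. No member barcode was a member in more than 1 library. A small set of members carried RNA of a second cell type. In 6, 5, 6 and 3 members at least 1% of the UMIs came from the marker list of another cell type, mostly osteoblasts or chondrocytes, and these barcodes are called mixed. They were deep, so these few barcodes held 12.3% and 14.6% of the summed member UMIs in mutants, 35.5% in control 1 and 12.3% in control 2. In control 1 a single member held 262 UMIs of megakaryocyte genes. Control 1 therefore stands apart, and the tests on levels below were run for all members and again without the mixed barcodes, an alternative chosen after seeing the data.

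The group was first set beside the other ECs of the same library, as a description with no test, since the rule itself separated them. Levels are in CPM, the UMIs of a gene scaled to the summed UMIs of all barcodes of a class in a library. *Fmo2*, a flavin monooxygenase, stood at 504, 480, 397 and 481 CPM in members of Lats2iECKO 1, Lats2iECKO 2, control 1 and control 2, and at 49.8, 64.1, 40.9 and 27.8 CPM in other ECs. The smooth muscle and EC gene *Tagln* stood at 1239, 978, 827 and 983 CPM in members and at 199, 230, 104 and 85.8 CPM in other ECs. *Rab27a*, a small GTPase of Weibel-Palade bodies, stood at 144, 124, 104 and 105 CPM in members against 26.6, 26, 13.9 and 9.56 CPM. Each of these genes was higher in members in all 4 libraries. The widest mean log2 ratio, 3.63 ± 0.35 (SD, n = 4 libraries), belonged to *Fgl2*, a fibrinogen-like protein, followed by *Pgm5* with 3.48 ± 0.81 and *Tll1*, a metalloprotease related to tolloid, with 3.38 ± 0.98. The other 10 of the 15 genes with the widest ratios, *Ptk2b*, *Fam174b*, *Plekha7*, *Pdia5*, *Tbc1d8*, *Samd5*, *Spint2*, *Pcdh7*, *Wipf3* and the already named *Rab27a*, had mean log2 ratios from 2.59 to 3.19.

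The 8 genes with the lowest ratios were low in members, at 18.04 CPM or less in every library. The sinusoidal mannose receptor *Mrc1* had no UMI in the members of any library and stood at 95.9, 89.3, 344 and 331 CPM in other ECs. The gap junction gene *Gja4*, an arterial marker the rule did not use, stood at 0, 1.32, 0 and 0 CPM in members and from 91.3 to 127 CPM in other ECs. Likewise *Hey1*, an arterial transcription factor, was at 1.5, 2.65, 0 and 2.92 CPM. *Abcc9* and *Kcnj8*, which encode subunits of a potassium channel, did not pass 6.01 CPM in the members of any library. *Nebl*, *Btnl9*, *Col8a1* and *Rnf152* completed the 8 lowest, with mean log2 ratios from -6.61 to -5.14. The label of non-arterial ECs rests on few genes, since whole identity lists were not near 0 in members. The 30 arterial genes summed to 5643, 5753, 5341 and 5574 CPM in members, to between 12497 and 13750 CPM in arterial-marker barcodes and to between 6521 and 7980 CPM in Vwf-low barcodes. In *Stab2* and *Apln* barcodes they summed to between 3063 and 3812 and between 4805 and 5846 CPM. The 20 sinusoidal genes summed to between 2039 and 2469 CPM in members and to between 5953 and 8052 CPM in *Stab2* barcodes. The other groups were below members, from 977 to 1530 CPM in arterial-marker, 1217 to 1871 CPM in *Apln* and 1190 to 1569 CPM in Vwf-low barcodes. The 30 capillary genes summed to 22059, 23664, 13329 and 19492 CPM in members, above the 4 other groups in each library except control 1, where *Apln* barcodes held 13765 CPM. *Fmo2* and *Tagln*, with *Vwf* and *Aplnr*, are also the marker genes that the study lists for bone ECs it calls arteriole-like. *Aplnr* had a UMI in 34.9%, 39.1%, 37.8% and 52.1% of members and in 30.8%, 32.8%, 48.1% and 45.7% of other ECs.

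**Figure D1:**
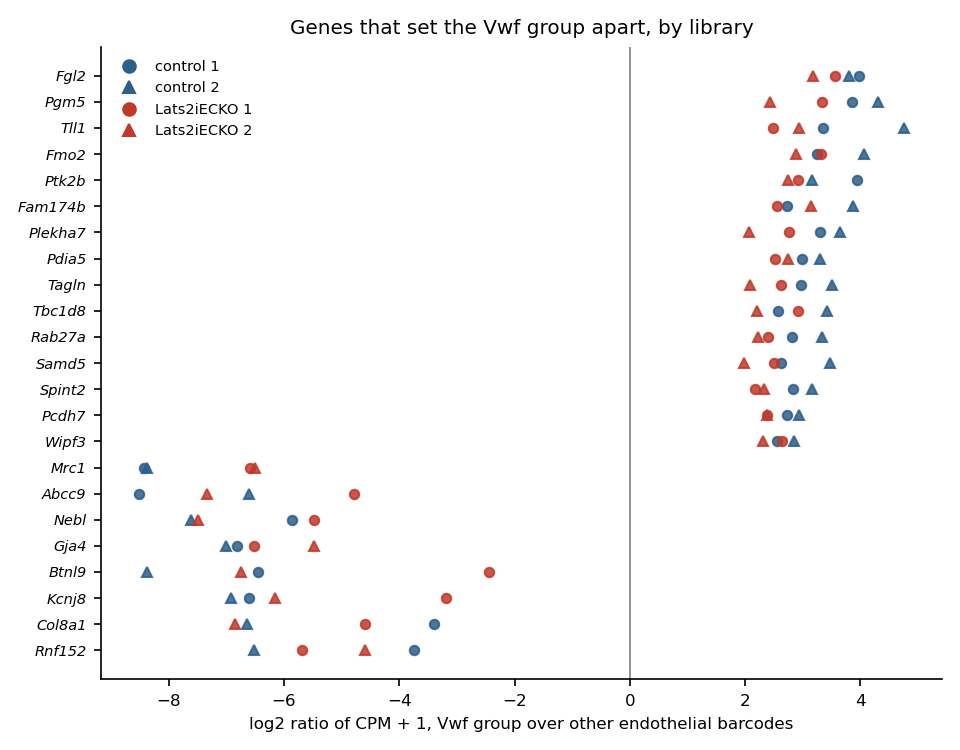
Log2 ratio of CPM + 1 in the Vwf group over all other endothelial barcodes of the same library (x axis) for the 15 highest and 8 lowest genes outside the rule (y axis), with 1 point per library. All points of the 15 upper genes lie above 0 and all points of the 8 lower genes lie below 0, and *Mrc1* has the lowest mean.

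Venous and fenestrated EC genes were present in members and in other ECs. The 22 venous genes summed to 8533, 9810, 5571 and 7140 CPM in members, which was below Vwf-low barcodes in Lats2iECKO 1 (11784 CPM) and below both *Stab2* and Vwf-low barcodes in control 1 (8186 and 5927 CPM). *Plvap*, the diaphragm protein of fenestrated endothelium, had a UMI in 81 of 83, 91 of 92, 44 of 45 and 46 of 48 members, and the mucin *Emcn* in 81, 92, 44 and 46. Of other ECs between 68.6% and 82.5% had a UMI of *Plvap* and between 78.1% and 88.3% one of *Emcn*. *Fmo2* had a UMI in 70, 78, 35 and 41 members, and *Selp* in 64, 74, 28 and 32. Both *Fmo2* and *Selp* were seen in 58, 65, 23 and 28 members, and neither in 7, 5, 5 and 3. The median depth of members was higher in mutants, so these counts of barcodes are not compared between genotypes. As background from free RNA, *Fmo2* had a UMI in 1.38%, 1.30%, 3.38% and 2.89% of the chondrocyte-marker barcodes of the same libraries and *Selp* in 1.07%, 1.26%, 1.18% and 0.997%, at median depths of 11449, 11376.5, 13957.5 and 14391 UMIs.

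*Vwf* is also a gene of megakaryocytes and platelets, so their markers were read in the members. Without mixed barcodes the 14 markers summed to 295, 326, 331 and 284 CPM, most of it *Rap1b*, which many cells express. The platelet genes *Pf4* and *Gp9* stood at 1.71, 3.1, 23.3 and 9.98 CPM and at 0 in all 4 libraries. The 15 leukocyte markers summed to 6.86, 15.5, 18.6 and 13.3 CPM, with 8 or more of them at 0 UMIs in each library when all members were counted.

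The rule gene *Vwf* and the genes of the mutation gave these levels. *Vwf* (chr6:125523737-125663642 of GRCm39) stood at 1092 and 1113 CPM in members of mutants and at 980 and 1056 CPM in those of controls. The *Cre-ERT2* transcript gave 21 and 39 UMIs in 19 and 30 members of mutants. It gave 2 and 4 UMIs in controls, in 1 member each. *Lats2* (chr14:57926960-57995845), the targeted gene, stood at 82.7 and 82.5 CPM in mutants and at 114 and 72.3 CPM in controls, so the groups overlap. The tags come from the 3′ end of transcripts and the excised part is not given in the sources used here, so this level is no check of the deletion. The change of *Lats2* in the other EC groups is given below. *Lats1*, its paralog, stood at 27.1 and 18.5 CPM against 27.1 and 26.3 CPM.

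By the rule the Vwf group made up a larger share of the ECs in both mutant libraries. Without barcodes that carried 5 UMIs of other cell types' markers, which left 79, 70, 36 and 30 endothelial barcodes, the libraries overlapped. By the rule the Vwf group held 15.1% (exact Clopper-Pearson 95% interval 12.2 to 18.4) and 13.5% (11 to 16.3) of the endothelial barcodes in mutants and 5.35% (3.93 to 7.10) and 5.75% (4.27 to 7.55) in controls. These intervals cover counting error only. The mean shares were 14.3% ± 1.14 and 5.55% ± 0.281 (SD, n = 2 each), a ratio of 2.58. The gap exceeds the spread between replicates, but with 2 libraries against 2 the two-sided exact permutation test cannot give less than its value here, p = 0.333.

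The rule counts UMIs, and members of mutants were deeper, so the share was repeated after each barcode was thinned to 1500 UMIs. It was then 11.1% and 10.3% in mutants and 4.18% and 2.99% in controls. With *Vwf* set at 4 or more UMIs the shares were 12.6%, 10.6%, 3.69% and 3.71%, and with 1 or more they were 17.2%, 15.4%, 6.66% and 8.02%. Leaving out every barcode with 5 or more UMIs of other cell types' markers was a setting added after seeing the data. It left 79, 70, 36 and 30 endothelial barcodes, of which 17, 9, 4 and 4 were members. The shares were 21.5% (13.1 to 32.2), 12.9% (6.05 to 23), 11.1% (3.11 to 26.1) and 13.3% (3.76 to 30.7), so that Lats2iECKO 2 lay below control 2 (ratio 1.41, exact permutation p = 0.667). The count of 5 was the same at any depth, and *Rap1b* was among the markers. Members with exactly 2 UMIs of *Vwf*, just inside the threshold, numbered 8, 9, 9 and 12. Barcodes just outside it, with 1 UMI that met the rest of the rule, numbered 11, 13, 11 and 19 and held *Fmo2* at 381, 296, 185 and 80.7 CPM. A share does not tell a larger group from a smaller remainder, nor from a change in *Vwf*, the gene that sets membership. At least 2 UMIs of *Vwf* were found in 162 of 548 and 210 of 680 endothelial barcodes in mutants. In controls they were found in 114 of 841 and 96 of 835. In arterial-marker barcodes *Vwf* stood at 257 and 296 CPM in mutants and 149 and 119 CPM in controls. In *Stab2* and *Apln* barcodes the genotypes overlapped. The part of the *Vwf* level in the share was not tested. The other ECs also differed, with 106 and 131 *Stab2* barcodes in mutants against 313 and 316 in controls, and 94 and 136 *Apln* barcodes against 32 and 23.

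**Figure D2:**
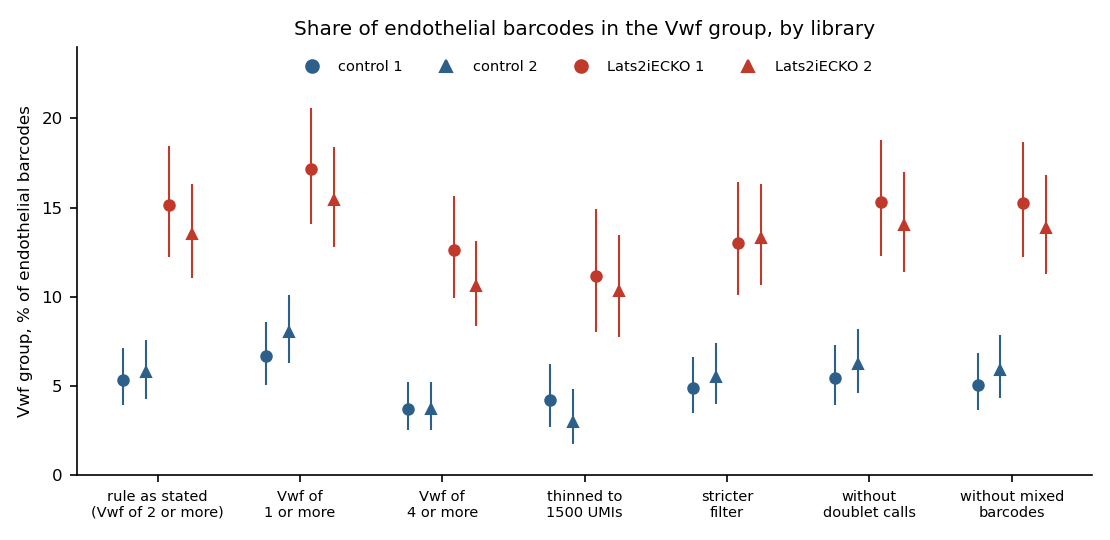
Share of endothelial barcodes in the Vwf group in percent (y axis) in each library, under the rule and under 6 other settings (x axis). Bars are exact 95% binomial intervals. Both mutant libraries lie above both control libraries in each of the settings drawn. Without barcodes with 5 UMIs of other cell types' markers, which is not drawn, Lats2iECKO 2 with 12.9% (9 of 70) lies below control 2 with 13.3% (4 of 30).

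Within the group, the genotypes were compared with the summed UMIs of members in each library, with the quasi-likelihood test of edgeR, and p values were adjusted over all genes tested (Benjamini-Hochberg). Calls needed both an adjusted p no higher than 0.05 and a log2 fold change no smaller than 1 in either direction. Of 5444 genes tested, 11 were called higher and 4 lower in mutants, 0.276% of those tested. Without the mixed barcodes 89 were higher and 54 lower of 5231, or 2.73%, and all 15 genes of the first count were among them. At an unadjusted p under 0.05 there were 703 genes in all members and 858 without mixed barcodes, a smaller move than that of the calls. The edgeR test pools spread over genes. An adjusted p can therefore fall with no larger change in the gene itself, as for *Ackr1* below. No gene was called by edgeR with free RNA subtracted (488 genes at an unadjusted p under 0.05) or with *Vwf* at 4 or more UMIs (610 genes), and with no filter on genes 133 were higher and 255 lower. The share subtracted was 11.2% and 8.15% in members of mutants, 39.6% in control 1 and 7.46% in control 2. It was scaled on markers of other cell types, so RNA of mixed barcodes entered it. Without mixed barcodes it was 1.52%, 1.69%, 1.59% and 1.86%, and 74 genes were then called higher and 48 lower. DESeq2 called the 9 of these 15 genes to which it gave an adjusted p and gave none to the other 6. The first count rests on single libraries. It came to 0 without Lats2iECKO 1, where 381 genes had an unadjusted p under 0.05, 10 without Lats2iECKO 2, of which 5 were among the 15, and 132 without control 1 and 160 without control 2. Libraries that do not overlap between genotypes, which the naming rule asks for, were found in 43.6% of all genes tested, and in 46.3% without mixed barcodes. Without mixed barcodes, leaving out a library gave between 32 and 95 higher and between 26 and 70 lower genes.

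P-selectin rose in members of mutants. *Selp* (chr1:163942833-163977595), the adhesion receptor on which leukocytes roll, stood at 892 and 1207 CPM in mutants and at 388 and 348 CPM in controls. Both mutant libraries were above both controls. The log2 fold change was 1.46 ± 0.21 (SE, adjusted p = 0.0118), and it was 1.35 ± 0.18 without mixed barcodes (adjusted p = 7.01e-11). With members chosen on thinned counts the log2 fold change was 0.98 and was not called (adjusted p = 0.0963). The call was also lost without Lats2iECKO 1 (adjusted p = 0.0679), without Lats2iECKO 2 (0.136), with equal numbers of members (0.0951), with *Vwf* at 4 or more UMIs (0.121) and with free RNA subtracted from all members (0.367). With each member thinned to 1500 UMIs, a UMI of *Selp* was present in 47.0% and 44.6% of members of mutants and 42.2% and 39.6% of those of controls. In empty droplets, which show the free RNA of a library, *Selp* stood at 19.5 and 24.2 CPM in mutants and 16.5 and 17.9 CPM in controls.

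Among enzymes, *Hdc* and *Masp1* were close to absent from members of controls. *Hdc* (chr2:126435558-126461318) encodes histidine decarboxylase, which makes histamine, and gave 49 and 50 UMIs in 22 and 22 members of mutants. In controls it gave 0 and 1 UMI. The ratio of summed levels was 47.1 with a 95% counting interval from 8.26 to 1878, and the adjusted p was 0.00827. Empty droplets held less *Hdc* in mutants, at 6.59 and 7.17 CPM, than in controls, at 17.8 and 17.1 CPM. *Masp1* (chr16:23268167-23339779), a serine protease of the lectin pathway of complement, gave 78 and 77 UMIs in 37 and 37 members of mutants and 1 and 5 UMIs in controls. Its log2 fold change was 3.54 ± 0.45 (adjusted p = 0.00827) and 3.26 ± 0.45 without mixed barcodes. Its size rests on these few control UMIs, being 2.90 without control 1, 5.05 without control 2 and 1.90 with members chosen on thinned counts, where that of *Hdc* was 2.46. The log2 fold change of *Hdc* likewise moved from 5.31 to 4.495 without control 1 and 8.35 without control 2.

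Matrix genes were among the increases. *Hmcn1* (chr1:150438275-150869200), which encodes the extracellular protein hemicentin-1, stood at 221 and 193 CPM in mutants and 69.1 and 75.8 CPM in controls, a log2 fold change of 1.46 ± 0.22 (adjusted p = 0.0162). For *Hmcn1* this became 0.44 with members chosen on thinned counts (adjusted p = 0.53), and the call was lost without Lats2iECKO 1 (adjusted p = 0.275) or Lats2iECKO 2 (adjusted p = 0.0617). *Adamts9* (chr6:92749680-92920520), a secreted protease of proteoglycans, stood at 704 and 720 CPM against 292 and 338 CPM, a log2 fold change of 1.13 ± 0.19 (adjusted p = 0.0361). *Adamts9* lost its call without Lats2iECKO 1 (adjusted p = 0.291), without Lats2iECKO 2 (0.196) and under a stricter cell filter of at least 2000 UMIs and under 10% mitochondrial UMIs (0.0568). In both genes the mutant libraries lay apart from the controls, also without mixed barcodes.

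The remaining increases were of mixed kind. *Fabp5* (chr3:10077602-10081674), a fatty acid chaperone, stood at 986 and 1465 CPM against 409 and 545 CPM (log2 fold change 1.32 ± 0.23, adjusted p = 0.0378). *Tmem252*, a transmembrane protein, stood at 349 and 292 CPM against 66.1 and 114 CPM (1.79 ± 0.24, adjusted p = 0.0111). *Clec14a*, a C-type lectin of ECs, stood at 323 and 347 CPM against 129 and 172 CPM (1.11 ± 0.20, adjusted p = 0.0485). Without mixed barcodes the log2 fold changes of *Fabp5*, *Tmem252* and *Clec14a* were 1.18, 1.70 and 1.01, each called. In all members each lost its call without Lats2iECKO 1 (adjusted p of 0.0679, 0.098 and 0.291). *Fabp5* also lost it without Lats2iECKO 2 (adjusted p = 0.396) and under the stricter cell filter (0.145), and so did *Clec14a* (0.196 and 0.145), which also lost it with RLE size factors (0.0581) and thinned counts (0.056). *Fabp5* also rose in arterial-marker, *Stab2* and Vwf-low barcodes, with log2 fold changes of 1.79, 2.67 and 2.99, and its 0.59 in *Apln* barcodes did not pass. In other ECs as a whole *Fabp5* and *Tmem252* passed as higher in mutants, as did 28.5% of the genes tested there. *Clec14a* passed as lower there, as did 28.8%.

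A stress gene and a hemoglobin gene also passed, and both were more abundant in the free RNA of mutants. *Atf3*, a stress-induced transcription factor, stood at 212 and 245 CPM against 72.1 and 111 CPM in members and at 313 and 309 CPM against 73.9 and 94.8 CPM in empty droplets. After subtraction of free RNA and removal of mixed barcodes its log2 fold change was 1.34 ± 0.27 (adjusted p = 0.000564). Over 19 alternatives it ranged from 0.97 to 2.01, and the call was lost in 7, among them free RNA subtracted from all members. *Hbb-bs*, a globin gene of red cells, stood at 314 and 358 CPM against 117 and 126 CPM in members and at 23478 and 25240 CPM against 4740 and 5254 CPM in empty droplets. It was not tested after that subtraction, so the part of free RNA in its change was not tested. Both *Atf3* and *Hbb-bs* also passed as higher in mutants in the other ECs, as did 28.5% of the genes tested there.

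The lower genes were led by *Cxcl12* (chr6:117144945-117158328), the chemokine that holds hematopoietic stem cells and B cell precursors in the marrow. It stood at 78.2 and 109 CPM in members of mutants and at 382 and 741 CPM in those of controls. Neither mutant library came near a control, and the log2 fold change was -2.62 ± 0.29 (adjusted p = 0.00729). *Cxcl12* is also a marker of reticular stromal cells and was lower in the empty droplets of mutants, at 1172 and 1380 CPM against 3249 and 3016 CPM. The 12 markers of these stromal cells, with *Cxcl12* itself among them, summed to 1026 and 1075 CPM in members of mutants and 1422 and 2039 CPM in those of controls. Without mixed barcodes they summed to 1088 and 1129 CPM against 1856 and 1733 CPM, and 3 of the 5 that were tested fell, *Cxcl12*, *Ebf3* (log2 fold change -1.20, adjusted p = 1.09e-06) and the leptin receptor *Lepr* (-0.77, adjusted p = 0.00147), where 2.08% of all genes fell. The part of stromal RNA in the result was not tested. Without mixed barcodes and with free RNA subtracted the log2 fold change of *Cxcl12* was -2.41 ± 0.23 (adjusted p = 6.44e-12).

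A receptor gene, an actin-binding gene and a Ras regulator made up the other decreases. *Htr2a* (chr14:74877344-74946934), the serotonin receptor 2A, stood at 25.6 and 21.2 CPM against 117 and 114 CPM (log2 fold change -2.35 ± 0.29, adjusted p = 0.00827). *Ablim3*, an actin-binding LIM protein, stood at 49.6 and 43.7 CPM against 135 and 181 CPM (-1.80 ± 0.25, adjusted p = 0.0111). *Rasa4*, a GTPase activator of Ras, stood at 161 and 165 CPM against 358 and 417 CPM (-1.29 ± 0.19, adjusted p = 0.0118). Without mixed barcodes these log2 fold changes were -2.41, -2.17 and -1.36. *Htr2a* and *Rasa4* were low in other ECs, where they did not pass 12.2 and 69.8 CPM in any library. In other ECs *Rasa4* passed as higher in mutants, as did 28.5% of the genes tested there.

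**Figure D3:**
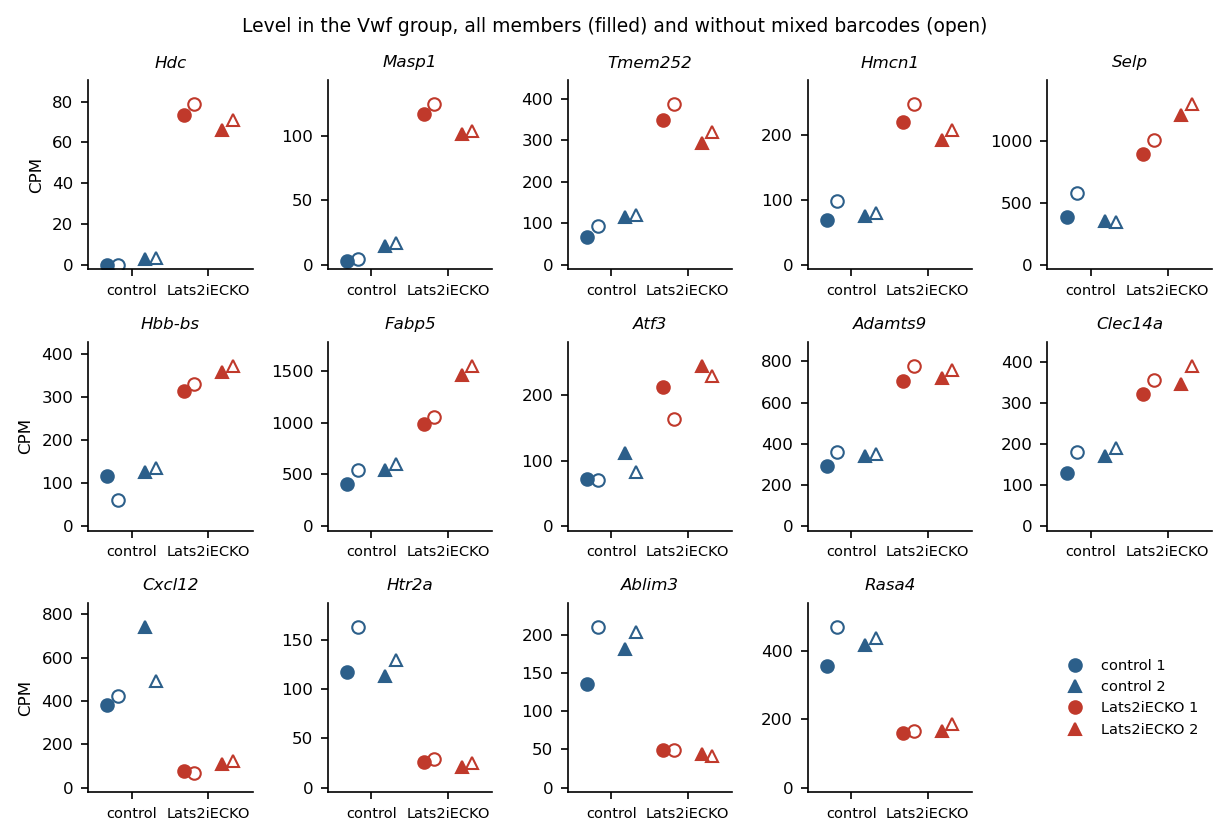
CPM (y axes, each with its own scale) of the 10 genes called higher and the 4 called lower by the naming rule in members of each library. Filled points are all members and open points leave out mixed barcodes; mutants and controls do not overlap in any of the 14 panels, as the naming rule requires and as 43.6% of all tested genes do.

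Without mixed barcodes the same rule named further genes, none of which was called in all members. *Bst1*, an enzyme of NAD metabolism on the surface of stromal and immune cells, gave 0 UMIs in members of both mutants and 26 UMIs over the controls, at least 20.7-fold lower against a floor of 3 UMIs over the group. *Tacr1*, the receptor of substance P, stood at 17.1 and 9.29 CPM against 121 and 89.8 CPM (log2 fold change -2.96 ± 0.40, adjusted p = 8.07e-11). *Tacr1* and *Bst1* did not pass the filters before testing in all members. *Map2k6*, a kinase upstream of p38, fell by 2.03 on the log2 scale (adjusted p = 0.00256), *Nxpe2* by 1.90 (adjusted p = 0.000128) and *Fbxw8*, part of a ubiquitin ligase, by 1.70 (adjusted p = 0.00269). In all members these log2 fold changes were -1.99, -1.81 and -1.79, with adjusted p from 0.0653 to 0.0726.

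The further increases without mixed barcodes held receptors, signalling genes and proteases. *Ackr3*, a scavenger receptor for CXCL12, stood at 77.1 and 66.6 CPM in mutants and at 14 and 3.33 CPM in controls (3.16 ± 0.55, adjusted p = 1.98e-06). The phosphatase gene *Dusp2* stood at 44.6 and 79 CPM against 14 and 3.33 CPM (2.96 ± 0.57, adjusted p = 2.46e-05). *Adamts18* stood at 101 and 105 CPM against 18.6 and 29.9 CPM (2.02 ± 0.38) and *Adamts5* at 51.4 and 60.4 CPM against 28 and 3.33 CPM (2.01 ± 0.50), both secreted proteases. *Vav3*, an activator of small GTPases, *Plscr1*, a phospholipid scramblase, and *Ppp1r14a*, an inhibitor of myosin phosphatase, had log2 fold changes of 2.22, 2.15 and 2.03. In all members *Ackr3*, *Dusp2*, *Adamts18*, *Adamts5*, *Vav3*, *Plscr1* and *Ppp1r14a* had log2 fold changes of 1.26, 2.83, 1.41, 1.21, 1.76, 1.63 and 1.70, with adjusted p from 0.0571 to 0.232. The direction of *Abi3bp*, a matrix protein, depended on the mixed barcodes, with a log2 fold change of -0.43 in all members (adjusted p = 0.609) and 2.53 without the mixed ones (adjusted p = 5.91e-05). *Col1a1* and *Col1a2* fell without mixed barcodes, but with all members and without control 1 their log2 fold changes were 1.17 and 1.20. In the free RNA *Col1a1* stood at 5425 and 4589 CPM in mutants against 17647 and 18489 CPM in controls, and its part in the result was not tested.

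Gene lists were read by how many of their tested genes passed at the 0.05 level, whatever the size of the change. Over all genes 16 of 5444 (0.294%) passed in all members, 0.202% higher and 0.0918% lower, and 249 of 5231 (4.76%) passed without mixed barcodes, 2.68% higher and 2.08% lower, with medians of -0.02 and 0.01 on the log2 scale. Markers of other cell types also passed without mixed barcodes. Of 5 osteoblast markers 4 fell, *Col1a1*, *Col1a2*, *Bglap* and *Bglap2*, and of 4 erythroid markers 3 rose, *Hbb-bs*, *Hba-a1* and *Hba-a2*. Of 5 chondrocyte markers none passed by edgeR. The part of free RNA in these changes was not tested. Of 23 tested genes of Weibel-Palade body cargo and release, *Selp* alone passed, with and without mixed barcodes, and the median log2 fold change was 0.15 and 0.13. *Angpt2* stood at 123 and 83.4 CPM against 90.2 and 55.4 CPM, and *Edn1* at 161 and 130 CPM against 159 and 87.5 CPM; the libraries of both genes overlap between genotypes.

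Of 20 genes of leukocyte adhesion and endothelial activation, 1 rose in all members and 18 had a log2 fold change above 0, with a median of 0.31, while 2615 of all 5439 genes were above 0. Without mixed barcodes 14 of 21 were above 0 with a median of 0.18, beside 2657 of all 5226 genes, and 6 rose, namely *Selp*, *Csf1*, *Vcam1*, *Nfkbia*, *Icam1* and *Ackr1*, and *Bst1* and *Podxl* fell. *Vcam1*, the integrin ligand of venular endothelium, had a log2 fold change of 1.04 ± 0.24 without mixed barcodes (adjusted p = 0.000902) and 0.83 with them (adjusted p = 0.349). For *Icam1* these were 0.88 ± 0.19 (adjusted p = 0.000335) and 0.85 (adjusted p = 0.118). *Ackr1*, the chemokine-binding receptor of venules, stood at 482 and 510 CPM against 286 and 265 CPM, a log2 fold change of 0.80 ± 0.19 that did not pass in all members (adjusted p = 0.111) and 0.62 ± 0.19 without mixed barcodes (adjusted p = 0.0244).

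Of 20 genes of venous identity, *Hmcn1* and *Selp* rose in all members. Without mixed barcodes 7 rose (*Hmcn1*, *Adgrg6*, *Selp*, *Mgp*, *Vcam1*, *Tll1* and *Ackr1*) and the apelin receptor *Aplnr* fell, and the median log2 fold change was 0.28. *Hmcn1* is subject to the limit on thinned counts given above. The venous transcription factor *Nr2f2* stood at 402 and 420 CPM against 234 and 368 CPM (0.41 ± 0.22, adjusted p = 0.449). *Fmo2* stood at 504 and 480 CPM against 397 and 481 CPM (0.12 ± 0.19, adjusted p = 0.826). *Mgp*, a matrix protein that chondrocytes also make, was abundant in empty droplets, at 12244 and 13453 CPM against 7866 and 7134 CPM. Of the other identity lists, *Fabp5* rose among 17 capillary genes in all members and 16 without mixed barcodes. Of 8 sinusoidal genes none passed by edgeR in all members and 5 rose without mixed barcodes, namely *Adamts5*, *Csf1*, *Vcam1*, *Stab1* and *Ctsl*, of which *Csf1* and *Vcam1* also stand in other lists. Among 18 arterial genes *Cxcl12* fell in all members, and without mixed barcodes *Igfbp3* and *Tm4sf1* also rose.

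Target genes of YAP1 and TAZ are regulated downstream of LATS2. Of 14 tested in all members none passed by edgeR, and the median log2 fold change was 0.32. Without mixed barcodes 4 of 13 rose, *Igfbp3*, *Ccn1*, *Ccn2* and *Myof*, the ecto-nucleotidase gene *Nt5e* fell, and the median was 0.62. *Ccn1*, a secreted matricellular protein, stood at 164 and 143 CPM in mutants and 63.1 and 84.6 CPM in controls, a log2 fold change of 1.00 ± 0.24 (adjusted p = 0.118). *Ccn2* (chr10:24471333-24474900), its relative CTGF, stood at 528 and 699 CPM against 313 and 312 CPM, a log2 fold change of 0.92 ± 0.21 (adjusted p = 0.0826). Without mixed barcodes these were 1.02 ± 0.32 (adjusted p = 0.0329) and 1.00 ± 0.20 (adjusted p = 8.56e-05). Free RNA of *Ccn2* was also higher in mutants, at 1489 and 1438 CPM against 619 and 616 CPM, and after its subtraction and without mixed barcodes the log2 fold change was 0.99 ± 0.25 (adjusted p = 0.00977). *Thbs1*, thrombospondin-1, overlapped between genotypes at 117 and 169 CPM against 234 and 75.8 CPM.

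The 200 bases before the start sites of *Ccn1* and *Selp* are shown because both genes are compared across EC classes below. They were read from GRCm39 at the canonical start of each gene in GENCODE M39, on the strand of the gene. Capitals mark the letters GGAATG, the core that TEAD factors bind, or TGANTCA, an AP-1 core, on either strand.
Ccn1, chr3:145355739-145355938, minus strand: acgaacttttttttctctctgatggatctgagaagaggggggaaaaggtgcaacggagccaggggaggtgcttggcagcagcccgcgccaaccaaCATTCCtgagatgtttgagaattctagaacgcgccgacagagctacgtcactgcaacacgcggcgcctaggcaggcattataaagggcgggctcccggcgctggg
Selp, chr1:163942633-163942832, plus strand: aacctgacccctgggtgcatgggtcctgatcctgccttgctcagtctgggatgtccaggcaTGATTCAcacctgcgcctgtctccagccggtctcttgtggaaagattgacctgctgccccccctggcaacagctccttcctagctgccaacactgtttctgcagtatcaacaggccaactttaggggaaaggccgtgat

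GGAATG occurred 1 time in the window of *Ccn1*, 105 bases before the start, as CATTCC on the strand shown, and not in that of *Selp*. TGANTCA occurred 1 time in the window of *Selp*, 139 bases before the start, and not in that of *Ccn1*. Of 21738 such windows of protein-coding genes, 9.49% held GGAATG and 4.94% held TGANTCA. A match is a description of the letters and not of binding.

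Further lists were described in the same way. In all members 1 gene passed in each of the immediate early (*Atf3* of 22), matrix (*Adamts9* of 23), transcription factor and junction (*Clec14a* of 43) and angiocrine lists (*Cxcl12* of 17). By edgeR none passed among 20 mesenchymal, 32 actin, 24 caveolar, 13 hemostasis, 16 Hippo, 16 interferon and 8 cell cycle genes, and the median of the immediate early list was 0.15. The counts that follow are without mixed barcodes. Of 22 immediate early and stress genes 7 rose, *Atf3*, *Nr4a1*, *Zfp36*, *Ier3*, *Fos*, *Jund* and *Junb*, and the heat shock genes *Hspa1b* and *Hspb1* fell, with a median log2 fold change of 0.61. *Fos* stood at 723 and 796 CPM against 513 and 386 CPM in these members, and at 2061 and 2059 CPM against 990 and 1021 CPM in empty droplets. Of 23 basement membrane and matrix genes 5 rose, among them *Adamts1*, *Adamts9* and *Nid1*, and *Col15a1* fell. Of 19 mesenchymal genes, *Mmp14*, *Mmp2*, *Fn1* and *Lgals1* rose, and *Col1a1* and *Col1a2* fell, with the reversal given above, and stromal cells also express these genes. Of 31 actin genes 3 rose and 1 fell, and of 43 endothelial transcription factors, receptors and junction genes 3 rose (*Gata6*, *Clec14a* and the flow-responsive *Klf2*) and 3 fell. Among 24 genes of caveolae and mechanosensing none rose and *Pacsin2* and *Itga6* fell. Of 12 hemostasis genes *Nt5e* and *Thbd*, the thrombin receptor thrombomodulin, fell. *Tead1* was the 1 gene of 16 of the Hippo pathway that passed, and no cell cycle gene of 7 did. The interferon list had 1 rise and 1 fall in 16 genes, and the angiocrine list 2 rises and 1 fall in 17.

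**Figure D4:**
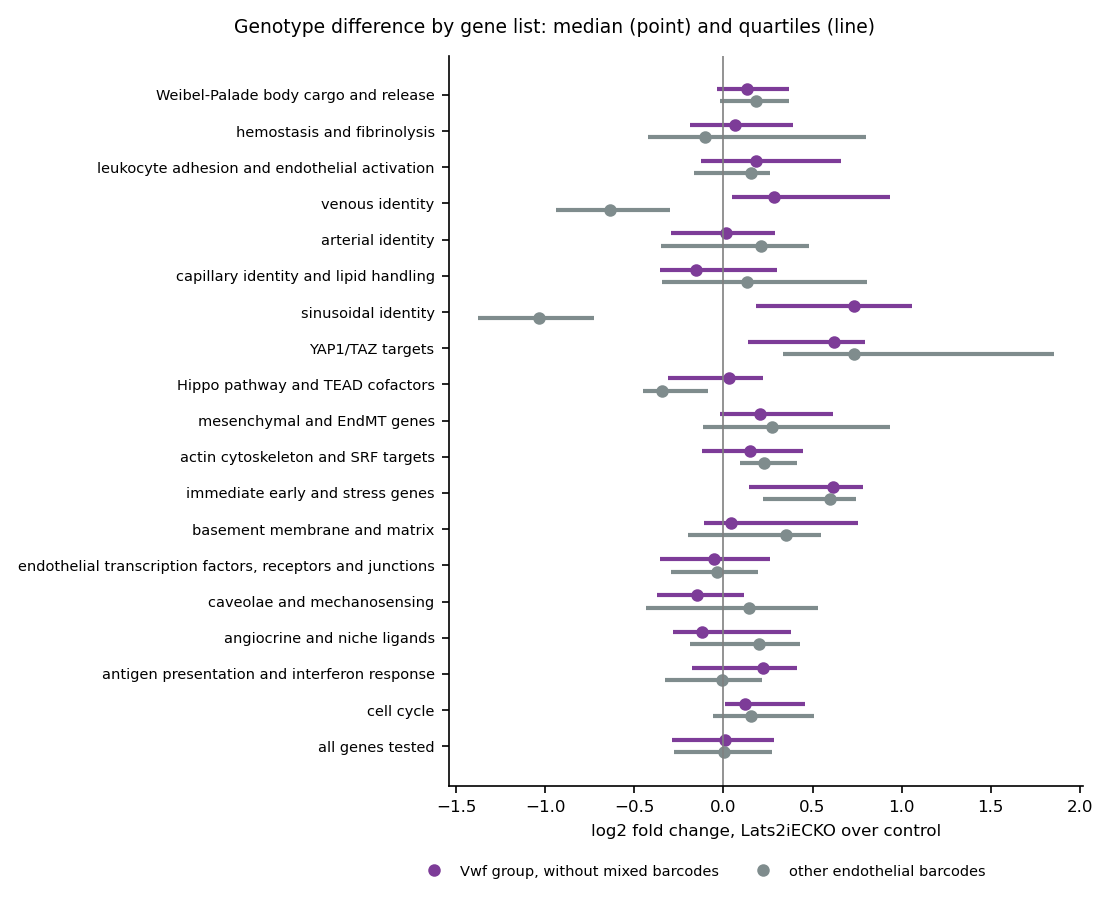
Median (point) and quartiles (line) of log2 fold changes between mutants and controls (x axis, positive where higher in mutants) over the tested genes of each list (y axis), for the Vwf group without mixed barcodes and for all other endothelial barcodes. The venous and sinusoidal lists have medians of 0.28 and 0.73 in the Vwf group and of -0.64 and -1.04 in other ECs. The tested genes differ (20 and 8 in the Vwf group, 19 and 12 in other ECs). Both classes have a median near 0 over all genes. The rule kept *Stab2* barcodes out of the Vwf group, and mutants had fewer of them among other ECs. Makeup and level therefore cannot be told apart in other ECs.

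The difference between genotypes was then compared between the Vwf group and the other ECs in 1 model with the library as a block. It was not the same for 58 of 6496 genes tested (0.893%), of which 33 (0.508%) had the higher log2 fold change in members and 25 (0.385%) the lower. Without mixed barcodes there were 223 (3.53%) and 247 (3.91%) of 6316 (7.44% in all), and 4.48% differed by at least 1. Among the other ECs alone 57.3% of 6265 genes passed, 28.5% higher and 28.8% lower, and 4.17% with a change of at least 1. With as many of those barcodes as there were members 2.1% of 6417 passed, 1.18% higher and 0.919% lower, and 1.99% with a change of at least 1. Without Lats2iECKO 1 or without Lats2iECKO 2 no gene passed this edgeR test, with 452 and 409 genes at an unadjusted p under 0.05, while 62 and 71 passed without control 1 and 70 and 109 without control 2. The other ECs are a mixture whose makeup differed between genotypes, with fewer *Stab2* and more *Apln* barcodes in mutants, so a difference in their sums holds both makeup and level, which cannot be told apart here. Against Vwf-low barcodes alone 29 and 24 genes passed.

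*Angpt2*, the ligand of the receptor TIE2 and a Weibel-Palade body cargo, had the widest gap in all members, while without mixed barcodes *Bst1*, with no UMI in mutants, came before it. It stood at 123, 83.4, 90.2 and 55.4 CPM in members of Lats2iECKO 1, Lats2iECKO 2, control 1 and control 2, and at 284, 276, 19.1 and 9.17 CPM in other ECs. Members overlapped between genotypes and other ECs did not. The difference of the log2 fold changes was -3.92 ± 0.32 (adjusted p = 0.00713), and -3.04 ± 0.46 against Vwf-low barcodes alone (adjusted p = 0.0142). Control members were above the other control ECs in both libraries. *Edn1*, which encodes the vasoconstrictor endothelin-1, stood at 161, 130, 159 and 87.5 CPM in members and 222, 216, 45.8 and 34.5 CPM in other ECs (difference -2.28 ± 0.26, adjusted p = 0.0168).

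Further genes had the lower fold change in members. *Gadd45b*, a stress gene, stood at 52.6, 66.2, 105 and 120 CPM in members and at 207, 175, 69.5 and 77.4 CPM in other ECs (-2.36 ± 0.28, adjusted p = 0.0168). *Ablim3* fell in members and rose in other ECs, where it stood at 84, 113, 57.8 and 37.7 CPM (-2.91 ± 0.38, adjusted p = 0.0189). For *Htr2a* the difference was -2.50 ± 0.34 (adjusted p = 0.0189). *Cxcl12* fell in both classes, by 2.62 in members and by 0.42 in other ECs on the log2 scale, with a difference of -2.13 ± 0.27 (adjusted p = 0.0189).

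The 6 genes named with the higher fold change in members fell in the other ECs, where *Stab2* barcodes were fewer in mutants. *Hmcn1* stood at 221, 193, 69.1 and 75.8 CPM in members and at 70.3, 78.9, 166 and 160 CPM in other ECs, and the difference was 2.56 ± 0.25 (adjusted p = 0.00902). *Vav3* stood at 73.7, 72.8, 33.1 and 8.75 CPM in members and at 161, 153, 430 and 393 CPM in other ECs (3.14 ± 0.41, adjusted p = 0.0189). *Adamts5* had a difference of 3.02 ± 0.41, *Nav3*, a gene of microtubule ends, 2.69 ± 0.45, *Enpp6*, a choline phosphodiesterase, 2.58 ± 0.30, and *Adgrg6*, an adhesion G protein-coupled receptor, 2.57 ± 0.33. Their adjusted p values were 0.0189, 0.0409, 0.0168 and 0.0189. *Selp* had a difference of 1.31 ± 0.23 (adjusted p = 0.045), which against Vwf-low barcodes alone was -0.82 ± 0.45 (adjusted p = 0.479). *Selp* was also higher in both mutants than in both controls in arterial-marker barcodes, at 206 and 215 CPM against 65.3 and 20.9 CPM, and in Vwf-low barcodes, at 199 and 107 CPM against 24 and 39.8 CPM.

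**Figure D5:**
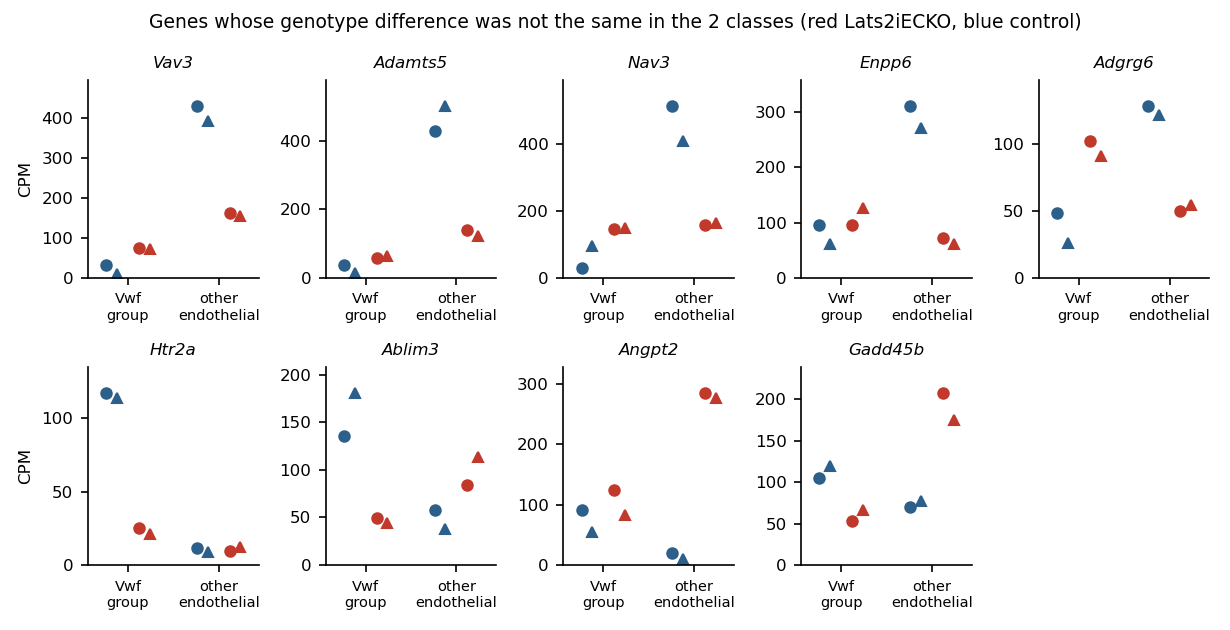
CPM (y axes, each with its own scale) in the Vwf group and in other endothelial barcodes of each library for 9 genes whose genotype difference was not the same in both classes. In other ECs *Angpt2* and *Gadd45b* are higher in both mutants, while in the Vwf group *Angpt2* overlaps between genotypes and *Gadd45b* is lower in both mutants.

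The same genes were also read in each of the 4 other EC groups. *Angpt2* was at 45 and 33 CPM in arterial-marker barcodes of mutants and 5.08 and 6.01 CPM in those of controls, and at 84.2 and 86.5 against 7.98 and 7.59 CPM in Vwf-low barcodes. In *Stab2* barcodes it was at 130 and 92.1 against 13.2 and 10.3 CPM. It was highest in *Apln* barcodes of mutants, at 799 and 834 against 215 and 31.1 CPM, which the rule kept out of the Vwf group. *Edn1* was at 83.6 and 119 CPM in *Stab2* barcodes of mutants and 0.697 and 1.25 CPM in those of controls. *Ccn1* rose in the arterial-marker, *Stab2*, *Apln* and Vwf-low barcodes with log2 fold changes of 1.34, 1.91, 1.29 and 2.33, beside 1.00 in members, which did not pass. *Meox2*, a homeobox transcription factor, was at 509, 646, 502 and 619 CPM in members and at 192, 238, 97.6 and 79.2 CPM in Vwf-low barcodes, and its difference of log2 fold changes from the other ECs was -1.68 ± 0.30 (adjusted p = 0.0469). *Cav1*, the scaffold of caveolae, was at 660, 699, 796 and 828 CPM in members (-0.30, adjusted p = 0.511). *Hmcn1* fell in each of the 4 other groups, with log2 fold changes from -1.28 to -0.48. *Lats2* was lower in arterial-marker barcodes of mutants (log2 fold change -0.48, adjusted p = 0.00545) and in Vwf-low barcodes (-0.63, adjusted p = 0.0392). Its log2 fold changes of -0.06 in *Stab2* barcodes, -0.22 in *Apln* barcodes and -0.23 in members did not pass. The paper reports reduced *Lats2* transcripts in mutant EC subpopulations.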

How the data were processed

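The 4 libraries hold 3′ droplet (10x) data from enzymatically released bone cells depleted of hematopoietic cells with antibodies. The authors trimmed reads with cutadapt 3.5 and aligned them with STARsolo 2.7.10a to the GRCm39 build, with Cre-ERT2, tdTomato and eGFP added to the GENCODE genes, per the paper's methods and the submitters' processing notes. The deposited values are expected counts of UMIs per gene and barcode, in which an expectation maximization step split the reads that map to more than 1 gene. They are unfiltered and not normalized, and 9.09% to 9.95% of entries are not whole. STARsolo's shared counts can split paralogs, such as the globin and collagen genes, unevenly.

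Barcodes with at least 1000 UMIs and 800 genes, under 15% mitochondrial and under 5% hemoglobin UMIs were kept. UMIs were summed per library and class, rounded to whole numbers and tested with edgeR 4.0.16 (R 4.3.3, TMM) in 2 mutant and 2 control libraries, on genes that passed filterByExpr and had a UMI in at least 20% of the barcodes of either genotype. The SE is the log2 fold change divided by the square root of F. The second model had library, class and class by genotype. DESeq2 1.42.0 was an alternative. Rule genes got no p. Precision follows the summed member UMIs, from 332711 to 755623 a library. Free RNA came from barcodes of 10 to 100 UMIs, and the share subtracted was scaled on 52 markers of osteoblasts, chondrocytes, leukocytes and erythroid cells. Doublets were scored with scrublet in scanpy 1.11.5, and the 4.11% to 5.49% of barcodes with the highest scores were called. The main analysis kept them. The tests were also run on simulated counts with 200 changed genes. These were drawn from the sums without mixed barcodes, with a common dispersion for both classes. The run is therefore no check of the fits on all members. The alternatives were those listed in the closing section.

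The text names the 10 largest called increases and decreases without overlap of libraries, leaving out rule genes, transgenes, predicted genes and ribosomal proteins. It also names up to 6 passing and 2 well-known other genes a list, up to 5 genes a direction for the difference between classes, and the 15 highest and 8 lowest genes against other ECs among those with 50 CPM or more. Genes named in other places were chosen after their values were seen. The members and gene lists were chosen with earlier results of these data known. No cell annotation was used. A gene that the rule named and some sequences are not reported here. Python 3.11.15, numpy 2.4.6, scipy 1.17.1 and pandas 2.3.3 were used.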

Additional observations from a re-analysis of the deposited data

Results flagged for a closer look

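For 9 genes the genotype difference in the Vwf group differed from that in the other ECs by the test of the difference itself. The log2 fold change in members minus that in other ECs was 3.14 for *Vav3*, 3.02 for *Adamts5*, 2.69 for *Nav3*, 2.58 for *Enpp6* and 2.57 for *Adgrg6*. It was -3.92 for *Angpt2*, -2.91 for *Ablim3*, -2.50 for *Htr2a* and -2.36 for *Gadd45b*. Over 15 alternatives, 14 for *Htr2a*, the signs held, and the ranges were 2.49 to 5.04 for *Vav3*, 1.65 to 4.11 for *Adamts5*, 1.93 to 3.87 for *Nav3*, 2.11 to 2.88 for *Enpp6*, 1.18 to 3.05 for *Adgrg6*, -4.75 to -3.04 for *Angpt2*, -3.39 to -2.37 for *Ablim3*, -4.29 to -1.98 for *Htr2a* and -3.43 to -1.75 for *Gadd45b*. All 9 lost their call without Lats2iECKO 1 and without Lats2iECKO 2, and *Adamts5*, *Adgrg6* and *Htr2a* also against Vwf-low barcodes alone (adjusted p of 0.229, 0.498 and 0.244). Calls were also lost with free RNA subtracted (*Nav3*, *Enpp6*, *Adgrg6*, *Htr2a* and *Gadd45b*, adjusted p from 0.0741 to 0.177), with *Vwf* at 4 or more UMIs (*Vav3*, *Adamts5*, *Nav3* and *Gadd45b*, 0.0659 to 0.132), and with other ECs drawn to the number of members (*Nav3* and *Adgrg6*, 0.0946 and 0.0741). The free RNA subtracted was 39.6% in members of control 1, as given above. Groups of 2 libraries are too small for a test of single outlying libraries.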

How the results depend on the processing

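The ratio of the mean share of the Vwf group was 2.58, from 2.44 to 2.73 when a library was left out, 2.998 after thinning, 2.22 with *Vwf* at 1 or more UMIs, 3.13 at 4 or more, and 1.41 without barcodes with 5 UMIs of other types' markers, a setting that keeps 4 members in each control library and leaves too few for the gene tests. In that setting the libraries overlap, with 12.9% in Lats2iECKO 2 and 13.3% in control 2. Of genes changed in members, 11 higher and 4 lower, the counts were 133 and 255 with no gene filter, 6 and 3 under the stricter cell filter, 23 and 18 without doublet calls, 0 and 0 with free RNA subtracted (488 genes at an unadjusted p under 0.05, edgeR), 25 and 5 with *Vwf* at 1 or more, 0 and 0 at 4 or more (610 genes), 89 and 54 without mixed barcodes, 35 and 33 after thinning, 2 and 2 with 45 members a library, and 74 and 48 with free RNA subtracted and no mixed barcodes. They ranged from 0 to 76 higher and from 0 to 100 lower when a library was left out. The free RNA subtracted from members of control 1 was 39.6%, and 1.59% without mixed barcodes. DESeq2 gave 13 and 5. The 15 genes had the same sign in every alternative that tested them.

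Of differences between classes, 33 higher and 25 lower, the counts were 75 and 72 by DESeq2, 177 and 151 with no gene filter, 127 and 121 without doublet calls, 8 and 9 with free RNA subtracted, 50 and 26 with *Vwf* at 1 or more, 6 and 7 at 4 or more, 223 and 247 without mixed barcodes, and 17 and 25 with the other ECs drawn to the number of members. They ranged from 0 to 70 higher and from 0 to 109 lower when a library was left out. Of single genes, *Abi3bp* turned from -0.43 to 3.04 with free RNA subtracted and no mixed barcodes, 2.55 with the replicate block and no mixed barcodes, 1.75 after thinning and 2.53 without mixed barcodes. *Col1a2* turned from -2.61 to 0.85 without doublet calls and ranged from -3.58 to 1.20 when a library was left out, with 1.20 without control 1. *Col1a1* turned from -3.07 to 1.148 without doublet calls and ranged from -5.63 to 1.17, with 1.17 without control 1. The causes were not tested.

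With the replicate number as a block, 6 genes rose and 5 fell, and 70 and 45 without mixed barcodes. Same-numbered libraries share only a number in the labels, and the correlation of their deviations was 0.092. The settings on mixed barcodes, on Vwf-low barcodes, on the draw of other ECs and on markers of other types were chosen after seeing the data. The precision of the gene tests rests on 332711 to 755623 summed member UMIs a library.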
